A study of Mus musculus with 14 samples.

Results

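Collagens, laminins, nidogens and elastic fibre genes make up 130 of the 36899 probe sets measured here, and stand for 69 of 15965 named genes. They were chosen by symbol alone: a probe set belongs if the annotation pairs it with exactly 1 gene symbol and that symbol starts as a collagen chain, laminin chain, nidogen, fibulin, fibrillin, emilin, microfibril-associated protein or lysyl oxidase does, or is Eln. Of the 130 probe sets, 76 were on array set A, 25 on set B and 29 on set C. By role, 20 genes (38 probe sets) were basement membrane components, 10 (21) were fibrillar collagens, 15 (32) were elastic fibre components or their cross-linking enzymes, and 22 (35) were other collagens. The remaining 2 genes, Mfap3 and Mfap3l (4 probe sets), share only the name. They are kept apart from the groups but are included in the totals over all members. Col24a1, Fbn1, Loxl2 and Loxl4 were not analysed here.

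The arrays measured total RNA of primary mouse splenocytes in 2 fractions, one enriched for follicular dendritic cells (FDC-E) and the other depleted of them (FDC-D). Follicular dendritic cells are stromal cells that hold antigen in the B cell follicles of lymphoid tissue. Sets A and C held FDC-D samples 1 and 2 and FDC-E samples 1, 2 and 3, and set B held FDC-D samples 1 and 2 and FDC-E samples 2 and 3. No genotype, treatment, strain, age, pooling of animals or method of enrichment is given in the sources used here for any group, and both groups are fractions of spleen rather than pure cells. The labels do not say whether samples with the same label were separate animals. A p-value here therefore reflects only how these samples vary, and that variation may be technical. The values are bulk measurements, in which fewer cells of a type and less RNA per cell cannot be told apart.

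Collagens are triple helices of 3 chains. Type IV collagen forms a sheet that, with a laminin network of alpha, beta and gamma chains and the nidogens that link both, makes the basement membrane under endothelium and around muscle cells. Types I, III and V instead pack into fibrils, which in spleen form the reticular fibres, capsule and trabeculae. Elastic fibres consist of an elastin core on a scaffold of microfibrils, assembled with fibulins and cross-linked by lysyl oxidases, and are a feature of artery walls.

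The FDC-E arrays held higher levels of chains of all 3 structures. Of the 69 genes, 51 had a probe set bright enough on 2 or more arrays to be tested. The FDC-E arrays alone were enough, so some genes that rose entered the test only through the group where they were high. With each gene represented by its brightest tested probe set, 23 of the 51 rose in FDC-E, 28 did not pass and none fell (limma with Benjamini-Hochberg adjustment within an array set, passing at an adjusted p under 0.05). That is 45.1% against 19.3% of all 12267 genes tested the same way, while 14.5% of all genes fell. Counting a gene when any of its tested probe sets passed, a rule chosen after the values were seen, 28 rose (54.9%, against 23.9% of all genes), 1 fell (1.96%, against 18.1%) and 22 did neither. A fold change here is a difference of mean log2(intensity + pseudocount), turned back to a ratio, and so understates the change of dim genes.

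By probe set the counts were 24 higher and 0 lower of 45 tested on set A, where 23.1% of all probe sets were higher and 17.9% lower. On set B 7 were higher and 1 lower of 16, against 19.4% and 17.0% of all. On set C 7 were higher and 0 lower of 17, against 9.5% and 8.73% of all. The median log2 fold change of the tested members was 0.39 on A, 0.13 on B and 0.13 on C, beside 0.02, 0.00 and 0.02 over all tested probe sets. Among the 78 tested member probe sets, 38 were higher, 1 was lower and 39 did not pass.

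**Figure D1:**
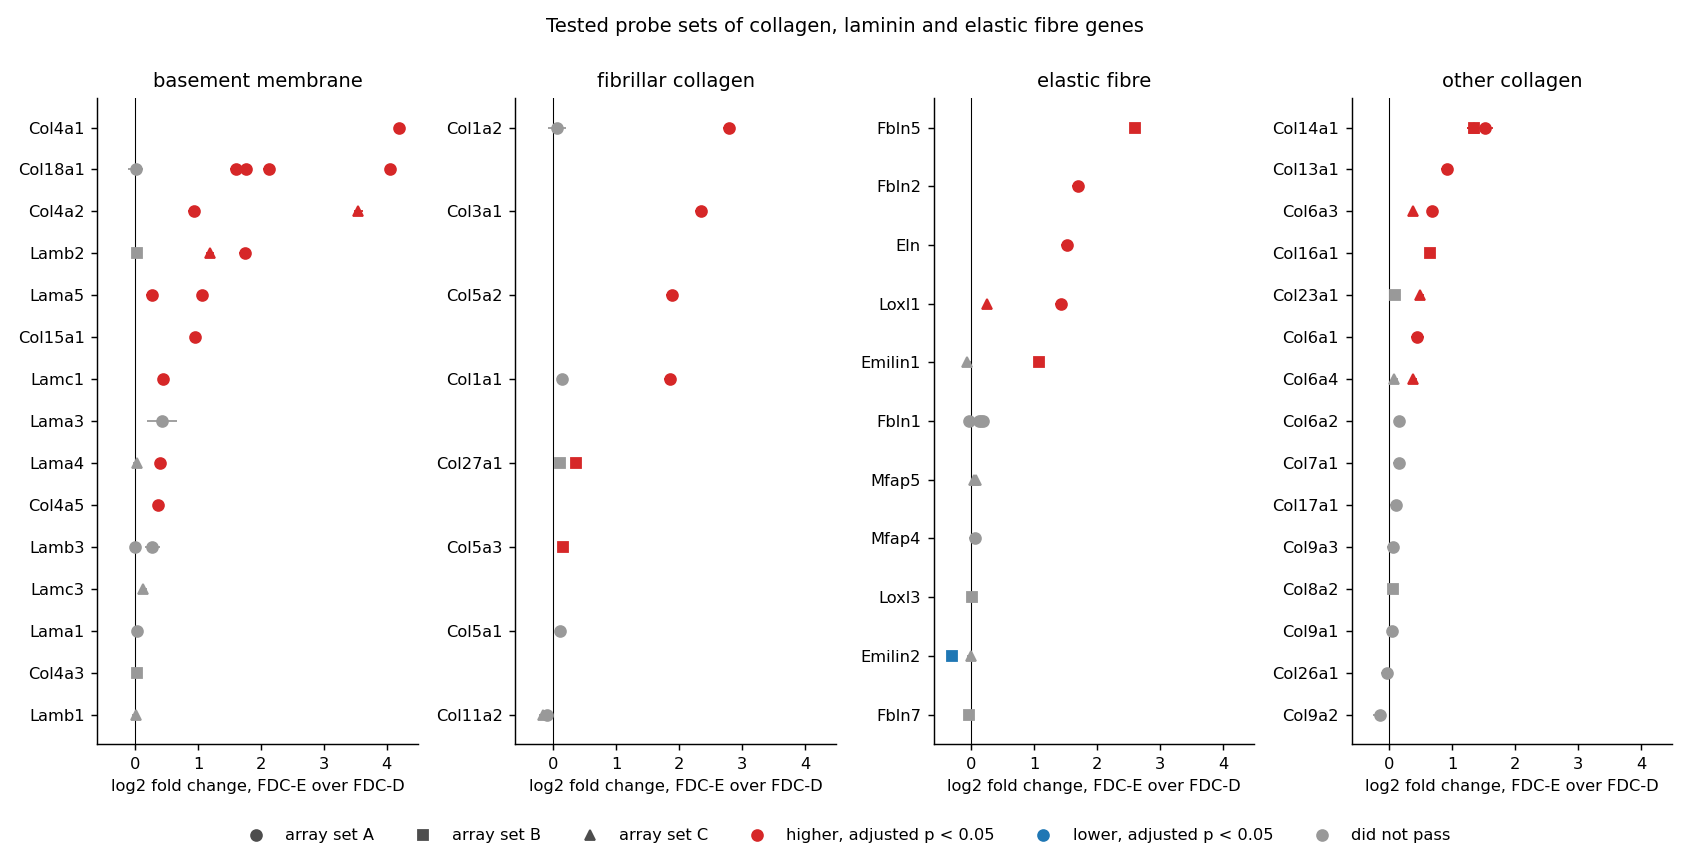
Log2 fold change (FDC-E over FDC-D, horizontal axis) of every tested probe set of the 4 groups, 1 line per gene, with bars for the standard error. Circles, squares and triangles are array sets A, B and C, red points were higher and the blue point lower at a limma adjusted p under 0.05, and grey points did not pass. Red points reach beyond 4 for Col4a1 and Col18a1, and the only blue point is Emilin2.

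Other genes and the arrays as a whole set the frame for these values. Median intensities were 244 and 250.8 on the FDC-D and 264.7 to 279 on the FDC-E arrays of set A, and differed less on sets B and C. Arrays of 1 group had Spearman correlations of 0.9862 to 0.9955 across probe sets, and arrays of different groups of 0.9136 to 0.9699. Of the 10 tested FDC markers, 8 were higher in FDC-E, and Cr2 and Fcer2a were lower, with a sum over the 11 listed genes on set A of 7457 to 8507 in FDC-D and 22540 to 27030 in FDC-E. Markers of other cell types moved as well, where 19.3% of all genes tested were higher and 14.5% lower. All 13 tested endothelial markers were higher, with a summed intensity on set A (10 genes) of 1944 to 2010 in FDC-D and 17990 to 20210 in FDC-E. All 10 smooth muscle and pericyte markers were higher, at 1959 to 1964 against 9602 to 11360, as were both tested fibroblast markers, with a sum over 6 genes of 1323 to 1419 against 3156 to 3928. Of 8 tested macrophage markers 7 were higher (7 genes summed, 4842 to 5792 against 13810 to 16340), and so were all 5 tested platelet markers (4 genes, 1354 to 1394 against 1663 to 1911). Of 6 tested B cell markers 5 were lower (6 genes, 20140 to 20330 against 6136 to 7934), as were all 5 tested T cell markers (5 genes, 4343 to 4843 against 967.7 to 1105). Among tested markers of mesothelium 1 of 2 was higher (4 genes, 529.5 to 533.1 against 586.5 to 684.2), and of 2 tested Schwann cell markers neither passed (3 genes, 1789 to 2011 against 1617 to 1798). No marker was at 0 on set A. The part of any of these cell types in the matrix values was not tested.

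The 2 chains that form the common type IV collagen of basement membranes, Col4a1 and Col4a2, are shown first by their start regions, because their genes lie head to head and both were among the largest rises. The windows are RefSeq's promoter windows on assembly GRCm38.p6, 250 bases before to 50 bases after the transcript start, written on the strand of the gene. Col4a1 lies on the minus strand at chr8:11312777-11313076 and Col4a2 on the plus strand at chr8:11312555-11312854. Their starts are 21 bases apart and the windows overlap by 78 bases. Capitals mark matches on either strand to CCAAT, to the GC box GGGCGG, and to the TATA motif TATAAA, and no 2 matches overlap.
Col4a1: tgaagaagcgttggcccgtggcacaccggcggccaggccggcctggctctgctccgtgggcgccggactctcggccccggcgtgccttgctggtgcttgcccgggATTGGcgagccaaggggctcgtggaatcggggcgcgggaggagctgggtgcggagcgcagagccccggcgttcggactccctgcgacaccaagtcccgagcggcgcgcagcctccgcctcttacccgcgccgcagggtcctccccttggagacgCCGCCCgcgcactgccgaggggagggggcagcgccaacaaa
Col4a2: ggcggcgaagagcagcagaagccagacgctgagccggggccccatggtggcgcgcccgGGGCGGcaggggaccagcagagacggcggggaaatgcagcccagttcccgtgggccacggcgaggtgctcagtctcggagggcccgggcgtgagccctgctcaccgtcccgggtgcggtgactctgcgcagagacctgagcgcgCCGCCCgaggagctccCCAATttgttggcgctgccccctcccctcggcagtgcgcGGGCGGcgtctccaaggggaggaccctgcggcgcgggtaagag
Col4a1's window held 1 CCAAT and 1 GC box match, and that of Col4a2 held 1 and 3, with no TATAAA in either. 1 GC box match lies in the shared bases and is counted in both. G and C made up 74.0% and 73.7% of the bases.

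Col4a1, measured on set A, read 123.3 and 130.5 in FDC-D samples 1 and 2 and 3972, 3772 and 3804 in FDC-E samples 1, 2 and 3. Both depleted samples were far below all 3 enriched ones, which differed little among themselves. The fitted difference was 18.3-fold (log2 4.19, SE 0.07, adjusted p = 3.42e-08). Col4a2 on set C read 162.8 and 201 against 2638, 2728 and 2676, an 11.7-fold rise (log2 3.54, SE 0.07, adjusted p = 5.36e-08). Its other probe set, on set A, also separated the groups but gave a far smaller ratio, with 2544 and 2206 in FDC-D against 4589, 4454 and 4762 in FDC-E (1.91-fold, adjusted p = 5.87e-05). The 2 probe sets of Col4a2 thus had the same direction and differed in size.

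The minor type IV chains, which form the networks of kidney, lung and eye, had smaller fold changes where they were tested. Col4a5 rose from 144.6 and 147.9 to 213.9, 216.3 and 215.2, with no overlap (1.29-fold, adjusted p = 0.00184). Col4a3 on set B overlapped between groups, at 157.2 and 153.3 against 172.1 and 151.4 in FDC-E samples 2 and 3 (adjusted p = 0.673). Col4a4 and Col4a6 were too dim to be tested, with no array above 100 units.

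Col18a1 encodes a heparan sulphate-bearing basement membrane collagen whose end fragment is endostatin. Of its 5 tested probe sets, all on set A, 4 rose. The largest change was from 60.64 and 67.33 in FDC-D to 2343, 2511 and 2483 in FDC-E (16.6-fold, adjusted p = 3.42e-08). On the next the values were 328.7 and 366.8 against 1733, 1917 and 1785 (4.36-fold), and on another 391.8 and 401.9 against 1213, 1565 and 1425 (3.05-fold). A further probe set lacked a value for FDC-E sample 2 and was fitted without it, at 49.25 and 48.71 against 401.5 and 355.3 (3.39-fold). The fifth showed no separation, with 204 and 162.7 against 231.9, 162.6 and 163.5 (adjusted p = 0.965). Col15a1, the close relative of Col18a1 in vessel and muscle basement membranes, rose from 85.64 and 89.61 to 231.8, 272.2 and 250.7 (1.93-fold, adjusted p = 2.22e-05), again without overlap.

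Among the laminin alpha chains, Lama5 and Lama4, the chains of endothelial laminins, were higher. Lama5 read 264.4 and 246.1 in FDC-D and 606.9, 658.7 and 621.3 in FDC-E (2.09-fold, adjusted p = 8.66e-06). A second Lama5 probe set, without a value for FDC-E sample 2, read 204.5 and 218.5 against 293.9 and 252.1. It gave 1.2-fold at an adjusted p of 0.0472 and lost that call in 9 other settings, with adjusted p of 0.237 without FDC-D sample 1, 0.136 without FDC-D sample 2 and 0.103 without FDC-E sample 1. Lama4 on set A read 496 and 495.2 against 695, 683.2 and 653.8 (1.31-fold, adjusted p = 0.00225), but its probe set on set C overlapped, at 2356 and 2264 against 2505, 2288 and 2279 (adjusted p = 0.789). Lama2, the alpha chain of muscle laminin, stayed below the filter, with 101.9 and 96.52 in FDC-D and 187.8, 188.6 and 228.8 in FDC-E, all 3 enriched values being above the depleted ones. Lama1, an early embryonic chain, overlapped at 225.8 and 245.2 against 269.8, 232.9 and 231.3 (adjusted p = 0.743). Lama3, a chain of epithelial laminin, was split by its depleted samples, which read 570.1 and 1174, against 1288, 995 and 1146 in FDC-E. Its 1.34-fold difference did not pass (adjusted p = 0.2). Without FDC-D sample 2 it was 0.90 in log2 (adjusted p = 0.00314), a fit that rests on the 1 depleted array at 570.1 and takes the spread from the FDC-E arrays.

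Of the beta chains, Lamb2, found in vessel and synaptic laminins, was higher on 2 of its 3 tested probe sets. On set A it read 114.1 and 120.9 against 529.3, 640.2 and 637.4 (3.34-fold, adjusted p = 1.86e-06), and on set C 145.5 and 153.4 against 385.1, 430.5 and 413.6 (2.28-fold, adjusted p = 3.07e-06). The third, on set B, was level, with 1557 and 1724 in FDC-D and 1680 and 1676 in FDC-E samples 2 and 3 (adjusted p = 0.758). Lamb1, the widespread beta chain, overlapped on its tested probe set (200.2 and 210.6 against 195, 212.6 and 215.6, adjusted p = 0.904), while 2 dim probe sets had every enriched value above the depleted ones. For Lamb3, the epithelial beta chain, 1 probe set read 713.1 and 709.7 against 1045, 756.4 and 864.1, with no overlap but a wide spread in FDC-E (1.21-fold, adjusted p = 0.101, and 0.0221 without FDC-E sample 2). Its other probe set had equal means, 179.3 and 180.

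Lamc1, the gamma chain shared by most laminins, read 453.5 and 486.9 in FDC-D and 653.4 and 695.3 in FDC-E samples 1 and 3, with no value for sample 2 (1.37-fold, adjusted p = 0.00434). Without FDC-D sample 1 its adjusted p was 0.0524. A second Lamc1 probe set was dim and overlapped. Lamc3 did not pass, at 192.9 and 196.8 against 207, 229.3 and 221.2 (1.1-fold, adjusted p = 0.124). The nidogens, which join laminin to type IV collagen, were below the filter and therefore untested. Nid1 read 20.06 and 16.04 against 43.3, 51.72 and 56.07, and Nid2 on set A 14.55 and 15.05 against 69.24, 75.04 and 77.73, so that for both the 3 enriched values were above the depleted ones, while a set B probe set of Nid2 overlapped. Over the basement membrane group, 7 of 15 tested genes rose and none fell by brightest probe set (median log2 fold change 0.37). This share of 46.7% compares with 19.3% of all genes, of which 14.5% fell. By any probe set 9 of the 15 rose and none fell, where 23.9% of all genes rose and 18.1% fell.

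**Figure D2:**
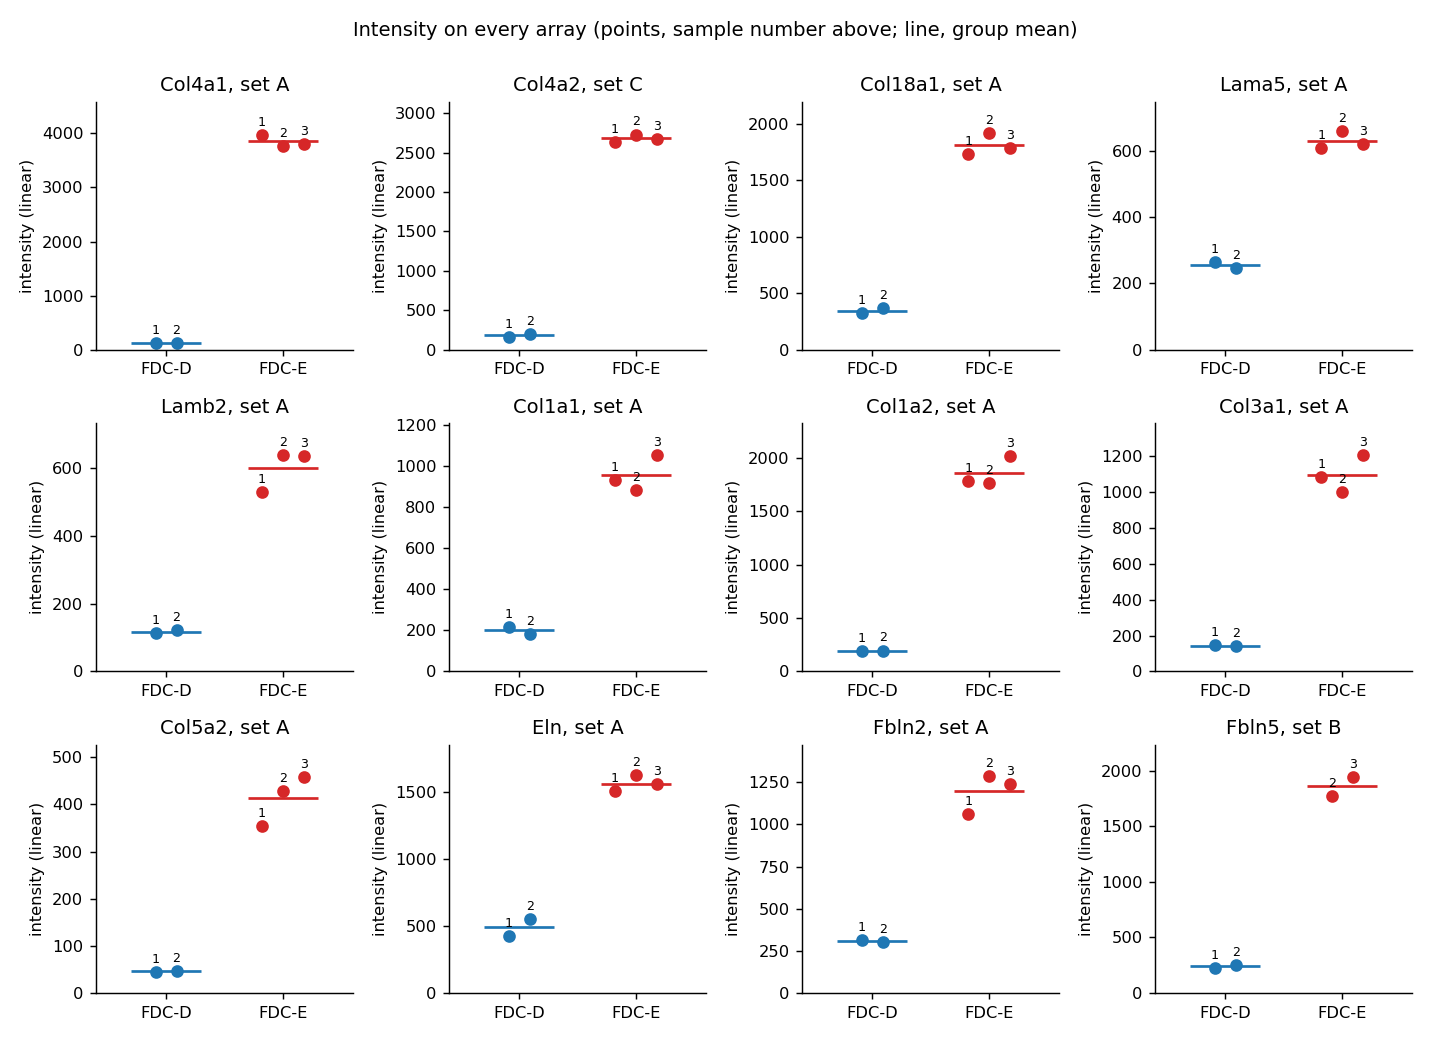
Linear intensity (vertical axes, from 0, in the units of the deposited tables) of 1 probe set for each of 12 genes on every array, FDC-D in blue and FDC-E in red, with the sample number above each point and a line at the group mean. The probe sets shown were picked from those that passed as higher. Brighter probe sets of Col1a1 and Lamb2, not shown, did not pass. In all 12 panels the enriched samples lie above the depleted ones, for example 3772 to 3972 against 123.3 and 130.5 for Col4a1.

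The fibrillar collagens are represented by the start regions of Col1a2 and Col3a1, a chain of type I and the chain of type III collagen, because these rose together yet begin with unlike sequence. The windows are again RefSeq's on GRCm38.p6, at chr6:4505368-4505667 and chr1:45311288-45311587, both on the plus strand, with the same 3 motifs in capitals.
Col1a2: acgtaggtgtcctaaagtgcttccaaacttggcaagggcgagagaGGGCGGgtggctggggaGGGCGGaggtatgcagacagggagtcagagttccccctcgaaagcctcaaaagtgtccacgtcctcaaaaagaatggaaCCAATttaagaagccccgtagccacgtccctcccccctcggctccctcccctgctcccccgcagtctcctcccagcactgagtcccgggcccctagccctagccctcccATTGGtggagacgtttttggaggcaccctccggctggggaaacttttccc
Col3a1: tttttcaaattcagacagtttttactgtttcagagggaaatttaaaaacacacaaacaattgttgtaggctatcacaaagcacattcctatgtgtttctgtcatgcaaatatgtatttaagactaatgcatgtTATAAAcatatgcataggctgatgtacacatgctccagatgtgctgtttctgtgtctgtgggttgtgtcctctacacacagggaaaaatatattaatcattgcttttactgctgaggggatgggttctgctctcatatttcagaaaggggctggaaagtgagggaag
Col1a2's window held 2 CCAAT and 2 GC box matches and was 61.0% G and C. The Col3a1 window had neither motif, 1 TATAAA match and 37.7% G and C. Windows were at hand for 46 of the 69 genes. Of their 56 windows 35.7% held CCAAT, 58.9% the GC box and 10.7% TATAAA, and of the 23 windows of genes with a probe set that rose 43.5%, 60.9% and 8.7%. Over all 32851 windows of that length the shares were 37.4%, 35.7% and 13.6%. A match is a description of letters and not a bound site.

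Col1a2 read 187.9 and 195.4 in FDC-D and 1780, 1759 and 2019 in FDC-E (6.92-fold, log2 2.79, SE 0.08, adjusted p = 1.51e-07). Col1a1, the other type I chain, read 215.9 and 183.9 against 932.1, 882.3 and 1055 (3.62-fold, adjusted p = 1.7e-06). Both genes separated the groups without overlap on these probe sets, and neither passed on its other probe set. Those read 774.8 and 749 against 990.1, 666.9 and 765.9 for Col1a2 (adjusted p = 0.775), and 733 and 689.6 against 765.4, 791.8 and 823 for Col1a1 (1.1-fold, adjusted p = 0.169). By brightest probe set 4 of 8 tested fibrillar genes rose (Col1a2, Col3a1, Col5a2 and Col5a3), where 19.3% of all genes rose. Col1a1, whose brighter probe set is the one that did not pass, is only among the 6 that rose by any probe set. Those 6 are 75.0%, against 23.9% of all genes. None fell under either rule, whereas 14.5% of all genes fell by brightest and 18.1% by any probe set. The group's median log2 fold change of 0.148 was 0.615 when all tested probe sets of a gene were averaged instead.

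Col3a1, partner of type I collagen in reticular fibres, read 146.5 and 140.7 against 1082, 1000 and 1205 on its tested probe set (5.09-fold, adjusted p = 4e-07). Its 2 dimmer probe sets, untested, also had every enriched value above the depleted ones (24.76 and 22.16 against 59.75, 58.1 and 54.99, and 19.89 and 22.45 against 162 and 171.6). Col5a2, a chain of the type V collagen that starts fibrils, rose from 45.3 and 47.35 to 353.6, 428.7 and 457.8 (3.71-fold, adjusted p = 1.79e-06). In contrast to the type V alpha 2 chain, the tested probe set of Col5a1 overlapped, at 458.9 and 440.4 against 440.9, 504 and 544.2 (adjusted p = 0.345), though the difference between the 2 chains was not tested. A dim Col5a1 probe set on set C read 25.36 and 27.7 against 80.28, 74.45 and 91.11.

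Smaller differences were seen for a further pair of fibrillar genes. Col27a1, best known from cartilage, read 325.8 and 369.3 against 482.2 and 453.3 in FDC-E samples 2 and 3 (1.28-fold, adjusted p = 0.00274), and its other probe set did not pass (adjusted p = 0.25). Col5a3 read 176.2 and 171.3 against 200.3 and 205.3 (1.11-fold, adjusted p = 0.0484), and lost its call in 9 other settings, including the loss of any single array, where adjusted p lay between 0.0723 (without FDC-E sample 2) and 0.208 (without FDC-D sample 2). Col11a2 did not pass on either probe set, both of which had log2 fold changes below 0 (-0.10 and -0.16). Col2a1 and Col11a1, collagens of cartilage, were below the filter.

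Elastin, Eln, the core of the elastic fibre, read 428.4 and 551.9 in FDC-D and 1508, 1626 and 1559 in FDC-E (2.87-fold, log2 1.52, SE 0.10, adjusted p = 8.66e-06). The depleted samples differed more from each other than the enriched ones did, but stayed well below them. A dim second probe set of Eln had 26.69 and 23.52 against 59.9, 76.96 and 55.92. Fbln5, the fibulin that tethers elastin to microfibrils and integrins, had the largest rise of the group, from 223.7 and 253.5 to 1775 and 1942 in FDC-E samples 2 and 3 on set B (6.07-fold, adjusted p = 6.72e-09). Fbln2, a fibulin of vessel walls and basement membranes, read 312.3 and 304.2 against 1064, 1289 and 1238 (3.23-fold, adjusted p = 2.65e-06). Fbln1 did not pass on any of 4 tested probe sets (adjusted p = 0.104 to 0.813). For 1 of them, with 240.7 and 249.6 against 226.4, 291.4 and 316.5, the adjusted p was 0.0187 without FDC-E sample 1.

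Among the cross-linking enzymes, Loxl1, which acts on elastin, rose on both array sets that carry it, from 31.89 and 33.55 to 199.2, 246.3 and 268.9 on set A (2.68-fold, adjusted p = 9.83e-06) and from 92.09 and 87.4 to 116.2, 119.4 and 114.8 on set C (1.19-fold, adjusted p = 0.00559). Lox itself was below the filter. One of its probe sets read 92.6 and 93.1 against 180.5, 189.7 and 183.9, and the other overlapped. Loxl3 did not pass (adjusted p = 0.888).

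The emilins, glycoproteins at the elastin and microfibril border, differed in direction. Emilin1 on set B rose from 188.9 and 194.7 to 457.3 and 537.9 (2.11-fold, adjusted p = 2.01e-06), while its set C probe set overlapped at 156.5 and 157 against 157, 142.2 and 145 (adjusted p = 0.461). Emilin2 was the single member that fell, from 314.4 and 320.3 to 263.3 and 223.8 on set B (1.23-fold lower, log2 -0.30, SE 0.07, adjusted p = 0.00731), a call kept in every other setting that was run. On set C, Emilin2 read 375.9 and 409.9 against 396.7, 387.1 and 383.9 (adjusted p = 0.92). Of the microfibril genes, Mfap4 and Mfap5 did not pass on their 3 tested probe sets, and Fbn2 and Mfap2 were below the filter. Mfap2 had 124.1 and 132.3 against 176.8, 155.3 and 167.9. Fbn2 overlapped on 3 of its 4 probe sets. By brightest probe set 5 of 11 tested elastic fibre genes rose and none fell, leaving 6 that did not pass (median log2 fold change 0.15). That is 45.5% higher, against 19.3% of all genes, of which 14.5% fell. Emilin2's fall appears only by the other rule.

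Outside these structures, 7 of 15 tested collagens rose and none fell (median log2 fold change 0.16). That is 46.7% higher, against 19.3% of all genes, of which 14.5% fell. Col14a1, which coats the surface of fibrils, had the largest fold change among them and was the one member measured on all 3 array sets with every probe set higher. It read 131.1 and 153.8 against 471.4, 611.7 and 651.9 on set A (2.87-fold, adjusted p = 2.32e-05), 167.5 and 174.3 against 482.4 and 644 on set B (2.54-fold) and 95.71 and 84.9 against 263.1, 302.7 and 372 on set C (2.53-fold). FDC-E sample 1 was the lowest enriched sample on both sets that held it, and sample 3 the highest on all 3. Col13a1, a transmembrane collagen, read 205.8 and 208.4 against 450.3, 542.3 and 417.8 (1.88-fold, adjusted p = 0.000137).

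Type VI collagen makes beaded filaments around cells. Its alpha 3 chain, Col6a3, rose on both tested probe sets, from 540.5 and 547.6 to 919.3, 879.5 and 959.9 on set A (1.59-fold, adjusted p = 0.000146) and from 261.9 and 264.1 to 353.6, 355.1 and 367.5 on set C (1.3-fold). Col6a1 read 496 and 513.7 against 800.4, 629.3 and 739.3 (1.36-fold, adjusted p = 0.00729, and 0.0622 without FDC-D sample 1). Col6a2, the third chain of the classical trimer, had 425 and 453.1 against 524.8, 479.3 and 498.9, with no overlap, and did not pass (adjusted p = 0.115). Col6a4 rose on 1 of 2 tested probe sets, from 381.3 and 393.7 to 511.2, 512.6 and 537.2 (1.3-fold, adjusted p = 0.00118).

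Col16a1, a fibril-associated collagen, read 119.5 and 134.4 against 220.4 and 268.3 on set B (1.56-fold, adjusted p = 9.78e-05), and Col23a1, a transmembrane collagen, 199.8 and 194.8 against 314.3, 276.4 and 308.1 on set C (1.41-fold, adjusted p = 0.000634). The cartilage collagens Col9a1, Col9a2 and Col9a3 and the epithelial Col7a1 and Col17a1 did not pass, nor did Col8a2 and Col26a1. For 2 of these the call changed when a single array was left out, and also with array weights and all arrays kept. Col9a2 read 621.7 and 601.2 against 628.4, 489 and 511.1 (adjusted p = 0.269), and without FDC-E sample 1 its log2 fold change was -0.25 with an adjusted p of 0.0138. Col7a1 read 684.1 and 651.3 against 788.9, 668.7 and 807.4 (adjusted p = 0.228), and passed without FDC-E sample 2 (adjusted p = 0.0486). Of the genes that share only a name, Mfap3 passed on 1 of 2 probe sets (1.13-fold, adjusted p = 0.0461, and 0.0752 to 0.263 without any 1 array) and Mfap3l did not (adjusted p = 0.0589, and 0.0446 without FDC-E sample 1).

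Several genes had probe sets that did not give the same result. Of the 20 members with over 1 tested probe set, 5 had all of them higher (Col14a1, Col4a2, Col6a3, Lama5 and Loxl1), 10 had some higher and some that did not pass, 4 had none that passed, and Emilin2 had 1 lower and 1 that did not pass. In no gene did probe sets pass in opposite directions. The widest ranges of log2 fold change were 0.009 to 4.055 for Col18a1, 0.932 to 3.545 for Col4a2 and 0.06 to 2.79 for Col1a2.

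**Figure D3:**
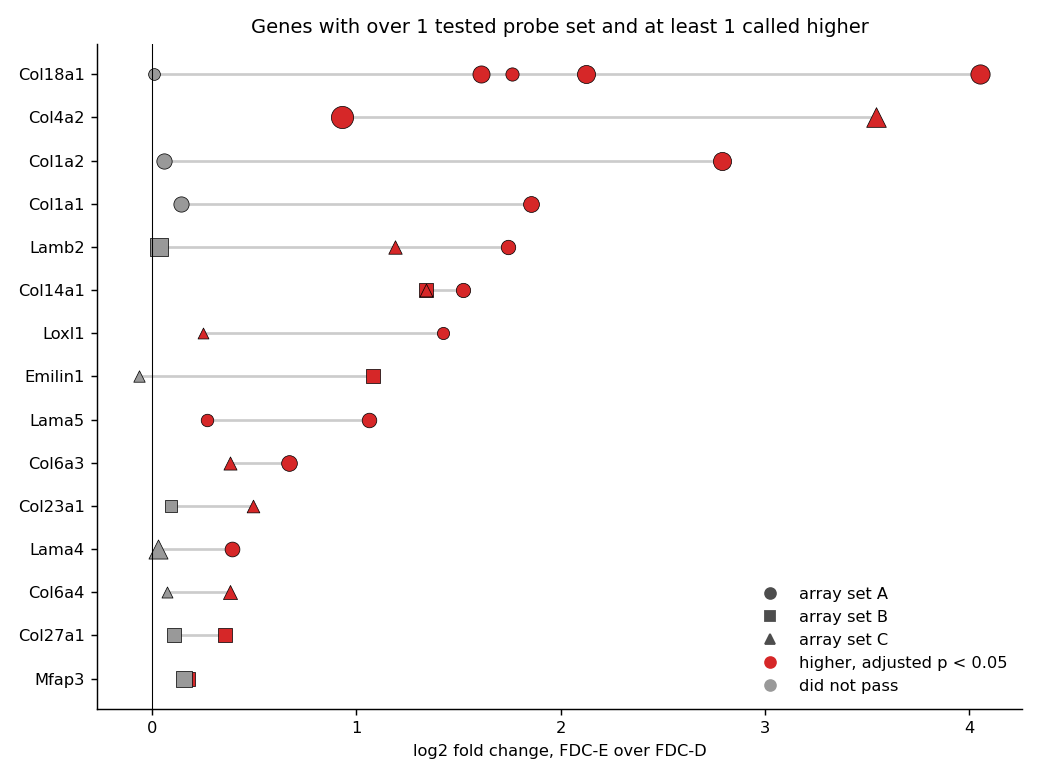
Log2 fold change (FDC-E over FDC-D) of each tested probe set of the 15 genes with over 1 tested probe set and at least 1 higher, joined by a line per gene. Symbols show the array set, red points passed as higher and grey points did not. Larger points stand for a higher mean intensity in whichever of FDC-D and FDC-E was brighter. Several of the large points are grey and close to 0, as for Lamb2 and Lama4, while red points of the same gene lie to the right.

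On the member probe sets that rose, the enriched samples were close to one another. Passing the test favours a small spread, so this does not describe members that did not pass. Over the 21 member probe sets of set A that rose and had 3 enriched values, the highest of these was 1.01 to 1.38 times the lowest (median 1.17). FDC-E sample 1 gave the lowest value in 12 of them, sample 2 in 7 and sample 3 in 2. On set C the ratio was 1.03 to 1.41 (median 1.05) over 7 probe sets, with sample 1 lowest in 5. Col1a1, Col1a2 and Col3a1 departed from this order, being lowest in sample 2 and highest in sample 3. The same held on set A for Col4a2 and Col6a3, whereas the fibrillar Col5a2 was lowest in sample 1.

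The 52 member probe sets below the filter carry no test. In 24 of them every FDC-E array was above every FDC-D array, in 3 every one was below, and in 25 the groups overlapped. Among all 13662 probe sets below the filter, 22.4% had the FDC-E arrays all above and 20.1% all below. By group the enriched arrays were all above in 6 of 13 basement membrane, 7 of 9 fibrillar, 5 of 14 elastic fibre and 5 of 15 other collagen probe sets. No group mean among these 52 exceeded 201.7.

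**Figure D4:**
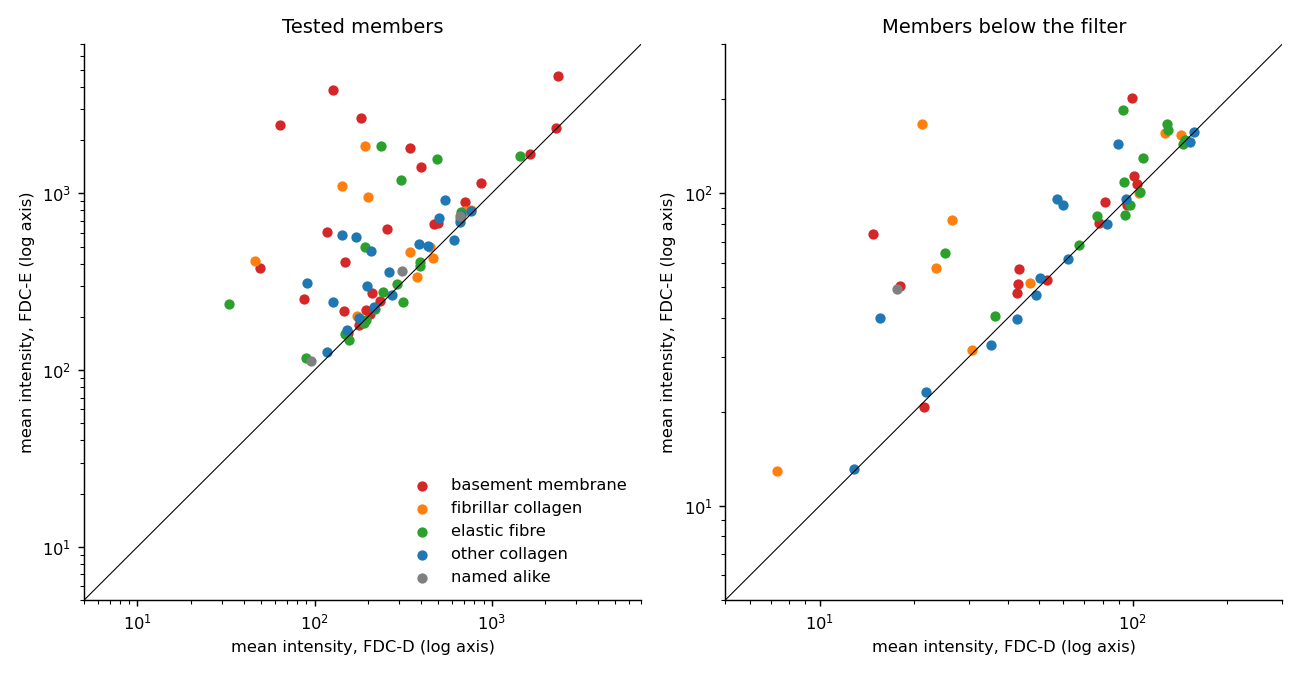
Mean intensity in FDC-E (vertical, log axis) against FDC-D (horizontal, log axis) for each member probe set, coloured by group, with tested probe sets on the left, those below the filter on the right and a line of equal means. Points above the line are higher in FDC-E, and few lie below it by any distance.

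Genes that make, hold or bind these proteins were counted from lists of partners, by brightest probe set. Of all genes tested the same way, 19.3% rose and 14.5% fell. Of 18 tested collagen-processing genes (25 listed), 10 rose and 1 fell. Serpinh1, the collagen chaperone HSP47, rose 12.5-fold (adjusted p = 6.65e-08), Crtap, a part of the prolyl 3-hydroxylation complex, 4.03-fold, Pcolce, an enhancer of procollagen cleavage, 3.09-fold, and P3h2, a prolyl 3-hydroxylase, 3.03-fold. Plod1, a lysyl hydroxylase, was the one that fell (1.24-fold lower, adjusted p = 0.0137). Of 11 tested basement membrane partners (14 listed) 9 rose and none fell, led by Sparc, which binds type IV collagen (12.8-fold, adjusted p = 6.65e-08), Tinagl1 (10.6-fold), Mmrn2 (8.29-fold) and Npnt, an integrin ligand (6.35-fold). Of 10 tested elastic fibre partners (14 listed) 5 rose and none fell, led by the proteoglycan Bgn (22.8-fold, adjusted p = 6.75e-08), Ltbp4, a microfibril protein needed for elastic fibre assembly (10.2-fold), Mgp (7.11-fold) and fibronectin, Fn1 (4.56-fold). Of 13 tested collagen and laminin receptors (16 listed) 7 rose and none fell, among them the integrin chains Itga1 and Itga6 (3.34-fold each), their beta partner Itgb1 (2.84-fold) and the laminin receptor Bcam (1.94-fold). The medians of the 4 lists were 0.25, 1.12, 1.16 and 0.26 in log2, beside 0.02 over all genes tested.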

How the data were processed

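The arrays used were 5 of set A, 4 of set B and 5 of set C. The authors deposited 1 linear intensity value per probe set and array. The array software, background correction and scaling behind these deposited intensity values are steps not given in the sources used here, and the scale was kept. Probe sets were named through the platform annotation, with symbols updated by Entrez identifier to GRCm38.p6.

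Each array set was fitted alone with limma 3.58.1 in R 4.3.3 (eBayes with a trended prior), two-sided, on log2(intensity + pseudocount). The pseudocount was the 20th percentile of positive values, 88.49 on A, 81.23 on B and 53.13 on C. Testing required a level above an array's 40th percentile on 2 or more arrays. A probe set could thus enter through 1 group alone. On set A, probe sets of Col5a2 (45.3 and 47.35 in FDC-D), Loxl1 (31.89 and 33.55) and Col18a1 (60.64 and 67.33) entered through FDC-E. Others also needed FDC-E, among them those of Col4a1 (123.3 and 130.5), Col3a1 (146.5 and 140.7), Lamb2 (114.1 and 120.9) and Col15a1 (85.64 and 89.61). Their FDC-D arrays alone would not have admitted them. On sets A and C any 2 of the 3 FDC-E arrays sufficed, whereas entry through FDC-D alone needed both arrays. All probe sets were filtered by the same rule. The 66 controls of each set were left out. Benjamini-Hochberg adjustment ran over all tested probe sets of a set, with a threshold of 0.05. FDC-E sample 2 had no value for 893 probe sets of set A, 10 of them members, which were fitted without it. An exact permutation test of 1 gene could not go below 0.1 with 2 against 3 arrays, or 0.333 with 2 against 2. The number of arrays limits the precision.

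A gene was represented by its brightest tested probe set, or, over array sets, by the one of highest level percentile. In each group values on every array were given for up to 8 genes that rose, every gene that fell, and the main chains. Genes whose call changed when 1 array was left out were added after their values were seen. Members, groups and lists were chosen with earlier results of these data known. Alternatives covered normalization, filter, pseudocount, prior, array weights, adjustment, replicate block, probe set rule and single arrays. The scripts were tested on simulated data.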

Additional observations from a re-analysis of the deposited data

How the results depend on the processing

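Of the 38 member probe sets that were higher, 33 kept the call under every alternative in which they were tested. So did the 1 that was lower, and no called value changed sign. Not all were tested in each alternative. The stricter filter left out dim probe sets, among them those of Col15a1, Col4a5, Col16a1 and Loxl1. The exceptions were 1 probe set each of Lama5, Lamc1, Col5a3, Col6a1 and Mfap3. A further 11 that did not pass did so under at least 1 alternative, and for 5 more only the mean over the gene's probe sets passed. Where a fit left 1 array in a group, that array was assumed to vary like the others. Scaling each array to the median array moved the median of all tested probe sets on set A from 0.02 to -0.09 in log2, and quantile normalization to -0.07.

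The median log2 fold change of elastic fibre genes (0.153) was 0.081 with quantile normalization, 0.026 with arrays scaled to the median array, 1.081 with the stricter filter and 0.236 with the gene mean of probe sets. That of other collagens (0.16) was 0.062, 0.047 and 0.38 under the first 3 of these, and that of fibrillar collagens (0.148) was 0.098 with quantile normalization, 0.093 with scaled arrays and 0.615 with the gene mean. Leaving out 1 array at a time gave 0.098 to 0.215 for elastic fibre genes. For member probe sets lower on set A, and for other collagen genes lower, it gave 0 to 1, and array weights gave 1 for both, the gene being Col9a2. With any tested probe set, 1 elastic fibre gene was lower. Without FDC-E sample 1, and with the replicate block, set B gave no value. Fibrillar genes of sets A and C then had medians of 1.083 and 0.972, beside 1.016 for the same 6 genes in the full fit.

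Replicate numbers were not taken to pair the samples. Deviations of same-numbered samples correlated at -0.026 and 0.011 on set A, at -0.176 and -0.077 on set C, and at 0.202 for the 1 such pair on set B, where no block could be fitted. With the replicate block 23 member probe sets were higher on set A and 7 on set C, and 1 call was lost, that of the second Lama5 probe set (log2 0.38, adjusted p = 0.0582).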
